A study of Mus musculus with 2 samples.

Results

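The 10 genes described here are ligands, receptors and inhibitors of the TGF-beta and activin pathway, taken by symbol from the 31053 genes counted in both single-cell libraries of the series. They are the TGF-beta ligands Tgfb1, Tgfb2 and Tgfb3, the activin subunits Inhba and Inhbb, the receptors Tgfbr1, Tgfbr2 and Eng, and the inhibitors Fst and Smad7. All 10 were found in both files. The rule takes them by symbol and uses no measured value, but the genes were chosen with earlier results of these data known. The pIVCL library came from liver of C57BL/6 mice after partial ligation of the inferior vena cava, an operation done at 8 to 10 weeks of age and left in place for 6 weeks, which narrows the vein above the liver and raises portal pressure. The Control library came from C57BL/6 liver and is titled as healthy. The growth protocol attached to both samples describes the ligation, so the groups are told apart by genotype label and title alone. A sham operation and the number of animals behind each suspension are not given in the sources used here. Both suspensions mixed hepatocytes with non-parenchymal cells.

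TGF-beta ligands are secreted in a latent form, held by latency proteins and freed by integrins or thrombospondin. The active ligand binds the type II receptor Tgfbr2, which recruits and activates the type I receptor Tgfbr1, and the signal passes through Smad2 and Smad3. Eng, or endoglin, is an endothelial co-receptor that also binds BMP ligands. Activins are dimers of inhibin beta subunits, use their own receptors and reach the same Smads. Follistatin, the product of Fst, traps activins outside the cell, and Smad7 blocks the type I receptors from within. In liver the pathway is best known for activating hepatic stellate cells, the perivascular cells that lay down scar collagen, and for restraining hepatocyte growth.

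Inhbb and Tgfb2 were the ligands that stood furthest above the Control library, in cells classed from markers as sinusoidal endothelial or stellate. Their UMIs in the stellate class lay in cells that also held markers of other cell types, as described below. Both genes lie on chromosome 1 (GRCm38), Inhbb at chr1:119415465-119422248 and Tgfb2 at chr1:186622792-186705989, each on the minus strand. Their promoters are shown because these ligands carry the main differences below. Each sequence is the 250 bases before the start site from RefSeq on GRCm38.p6, read on the gene's strand, at chr1:119422249-119422498 for Inhbb and chr1:186705990-186706239 for Tgfb2. Capitals mark CAGAC, the core letters of a SMAD-binding element.
Inhbb promoter: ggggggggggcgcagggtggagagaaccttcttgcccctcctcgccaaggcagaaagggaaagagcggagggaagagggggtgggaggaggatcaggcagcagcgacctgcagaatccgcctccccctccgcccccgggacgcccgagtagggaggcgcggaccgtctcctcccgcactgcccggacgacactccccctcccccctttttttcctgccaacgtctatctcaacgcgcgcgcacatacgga
Tgfb2 promoter: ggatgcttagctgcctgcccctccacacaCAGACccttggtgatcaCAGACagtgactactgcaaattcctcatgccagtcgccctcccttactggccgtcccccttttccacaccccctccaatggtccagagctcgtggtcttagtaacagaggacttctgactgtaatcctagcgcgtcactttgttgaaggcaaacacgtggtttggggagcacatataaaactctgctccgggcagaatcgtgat
The Tgfb2 window held CAGAC at 221 and 204 bases before the start site, and the Inhbb window held neither CAGAC nor its other-strand form GTCTG. Of 32851 mouse promoters of the same length, 42.2% held CAGAC on either strand, so a match is common. TGACTCA, the AP-1 site, or its other-strand form TGAGTCA was in neither window and was in 4.46% of all promoters. A missing match says only that the letters are not in this window. GC content was 68% in the Inhbb window and 53.6% in the Tgfb2 window, beside a median of 52.4% over all promoters. RefSeq promoter entries were found for 7 of the 10 genes, and not for Tgfb3, Fst and Smad7.

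Each value below is a UMI count, the number of distinct captured molecules of a gene, summed over the cells of a class. It is scaled to CPM, that is per 1000000 UMIs of the class, and carries a 95% interval for counting error only. With 1 library per group there is no replicate check and no test, and every ratio compares these libraries, not the conditions. Depth was 38154000 UMIs over 7042 barcodes for pIVCL and 24637681 UMIs over 3574 barcodes for Control. After filtering, 5443 pIVCL cells with a median of 2005 UMIs and 2721 Control cells with a median of 5262 UMIs remained. The libraries had 13 barcodes in common, 9 of them among the kept cells. Cell classes were named from marker genes and carry the ending "-like". LSEC stands for liver sinusoidal endothelial cell, and all 11 LSEC markers were detected in that class, summing to 14080 CPM in pIVCL and 23930 CPM in Control. Most LSEC-like cells lay in different clusters in the libraries. Cluster 6 held 421 pIVCL and 14 Control cells, and cluster 3 held 20 pIVCL and 774 Control cells. Levels are compared between classes or libraries for 1 gene at a time, since counting at the 3' end does not make genes comparable with each other.

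Tgfb1, the TGF-beta ligand of leukocytes and endothelium, was carried by most non-parenchymal classes and hardly by hepatocyte-like cells. In the pIVCL library its level was 293 CPM (242 to 351) in monocyte/macrophage-like cells, 272 CPM (197 to 365) in plasmacytoid DC-like cells, 215 CPM (164 to 277) in cDC2-like cells, 201 CPM (181 to 222) in LSEC-like cells and 196 CPM (172 to 223) in Kupffer-like cells. Each of these intervals overlapped the next. In the Control library plasmacytoid DC-like cells were at 253 CPM, LSEC-like cells at 244 CPM and Kupffer-like cells at 219 CPM, again with overlapping intervals. Hepatocyte-like cells held 2.69 CPM in pIVCL and 2.36 CPM in Control. LSEC-like cells gave 23.2% of Tgfb1 UMIs in pIVCL and 59.9% in Control, and if every class had the same number of cells their share would be 8.61% in pIVCL and 15.1% in Control, while B cell-like cells gave 19.7% in pIVCL. Within LSEC-like cells Tgfb1 differed little, with a ratio of pIVCL over Control of 0.824 (0.735 to 0.923).

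**Figure D1:**
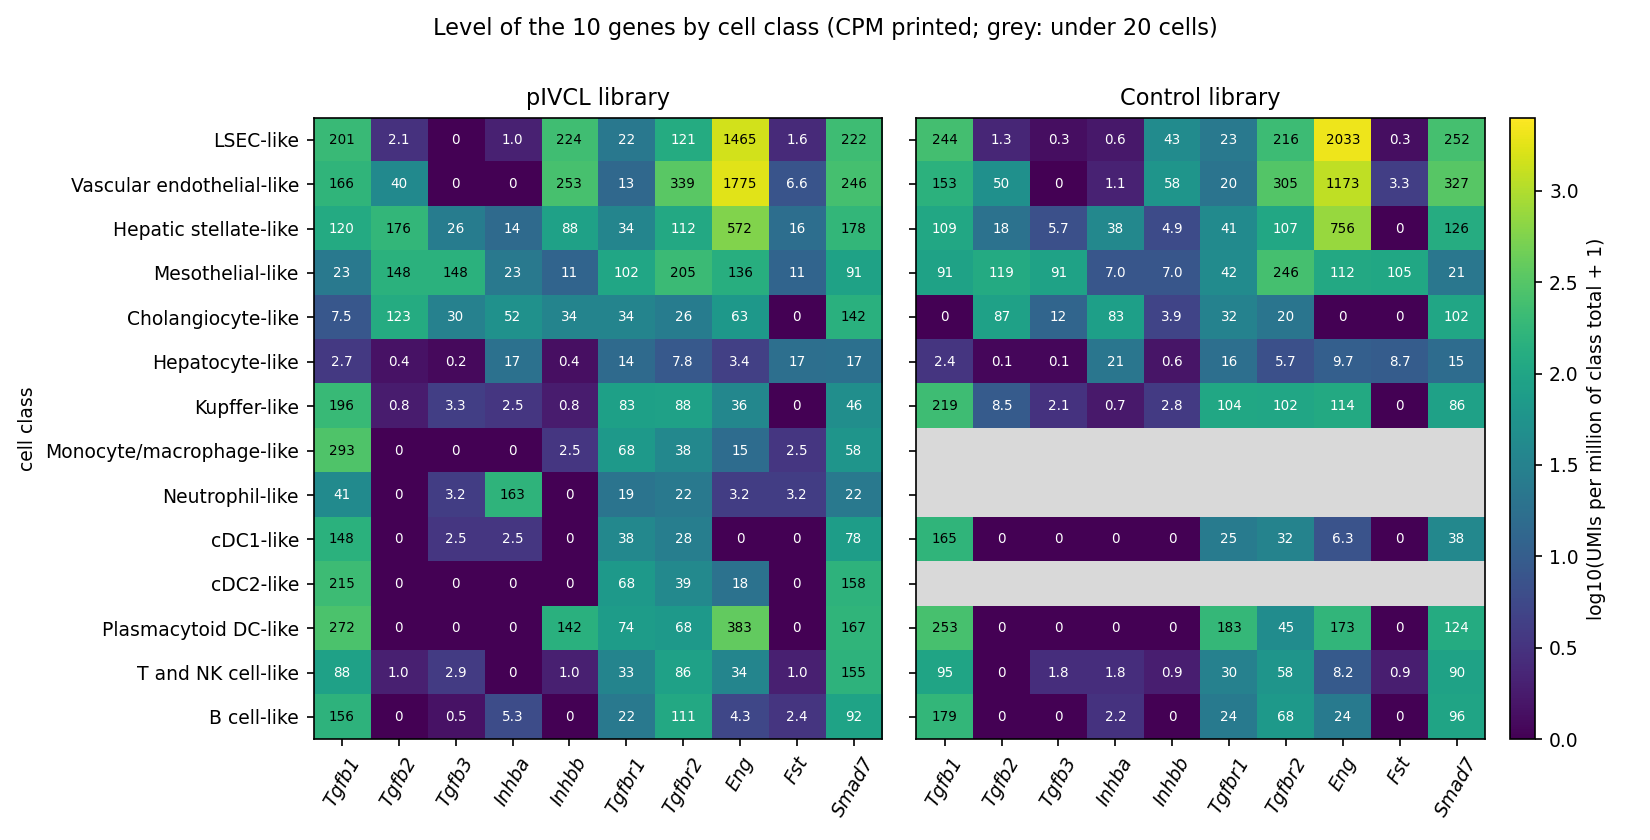
Level of each of the 10 genes in 14 cell classes, pIVCL library on the left and Control library on the right, as CPM of the class total (numbers) and on a log10 colour scale. Eng is brightest in the LSEC-like and vascular endothelial-like rows of both libraries, and Tgfb2 in stellate-like cells reads 176 CPM in pIVCL and 18.0 CPM in Control.

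Tgfb2 and Tgfb3, the other TGF-beta ligands, were found in few classes. Tgfb2 in the pIVCL library was at 176 CPM (141 to 217) in hepatic stellate-like, 148 CPM (78.7 to 253) in mesothelial-like, 123 CPM (84.8 to 173) in cholangiocyte-like and 39.9 CPM (14.6 to 86.8) in vascular endothelial-like cells. In the Control library the order was 119 CPM (69.5 to 191) in mesothelial-like, 86.7 CPM (54.3 to 131) in cholangiocyte-like, 46 UMIs (36.6 to 66.6 CPM) in vascular endothelial-like and 18.0 CPM (11.3 to 27.3) in stellate-like cells. Stellate-like cells had the highest value in pIVCL, with an interval that overlapped the next, and the lowest of these 4 classes in Control. Of their 88 UMIs in pIVCL, 60 lay in 13 cells rich in smooth muscle and portal fibroblast markers, described below with the rest of the class. Intervals of the mesothelial-like and cholangiocyte-like cells overlapped between the libraries. Stellate-like cells held 56.8% of Tgfb2 UMIs in pIVCL and 16.9% in Control, where vascular endothelial-like cells held 35.4%. Tgfb3 was sparse, with 52 UMIs in pIVCL and 31 in Control. It was highest in mesothelial-like cells, the surface lining of the organ, at 148 CPM (13 UMIs in 21 cells) in pIVCL and 91.3 CPM (13 UMIs in 44 cells) in Control.

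The activin subunits were split between parenchyma and endothelium. Inhba, which forms activin A, had 77.3% of its UMIs in hepatocyte-like cells in pIVCL and 65.5% in Control, at the low level of 17.4 CPM in pIVCL and 20.5 CPM in Control. Its highest levels lay elsewhere. Neutrophil-like cells of the pIVCL library held 163 CPM (121 to 214), from 51 UMIs in 22 of 89 cells. The Control library held only 3 neutrophil-like cells, so that class has no Control level. Cholangiocyte-like cells held 52.3 CPM in pIVCL and 82.8 CPM in Control, with overlapping intervals. Inhbb, which forms activin B, was an endothelial transcript in both libraries, and LSEC-like cells held 63.0% of its UMIs in pIVCL and 78.4% in Control. Vascular endothelial-like cells were at 253 CPM (179 to 347) in pIVCL and 57.6 CPM (43.1 to 75.3) in Control, and LSEC-like cells at 224 CPM (204 to 247) in pIVCL and 42.8 CPM (37.8 to 48.2) in Control. Those classes overlapped within the pIVCL library and within the Control library, but not between libraries. The vascular endothelial-like class had 35 pIVCL cells and 109 Control cells, too few for a ratio under the limit of 50 cells, and its clusters were unequally filled. Plasmacytoid DC-like cells of pIVCL read 142 CPM, but 21 of their 23 UMIs lay in 2 cells and all 23 in cells with an LSEC marker UMI. In the shared vascular endothelial-like cluster 15, Inhbb was at 155 CPM in 20 pIVCL cells and 72.0 CPM in 83 Control cells.

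**Figure D2:**
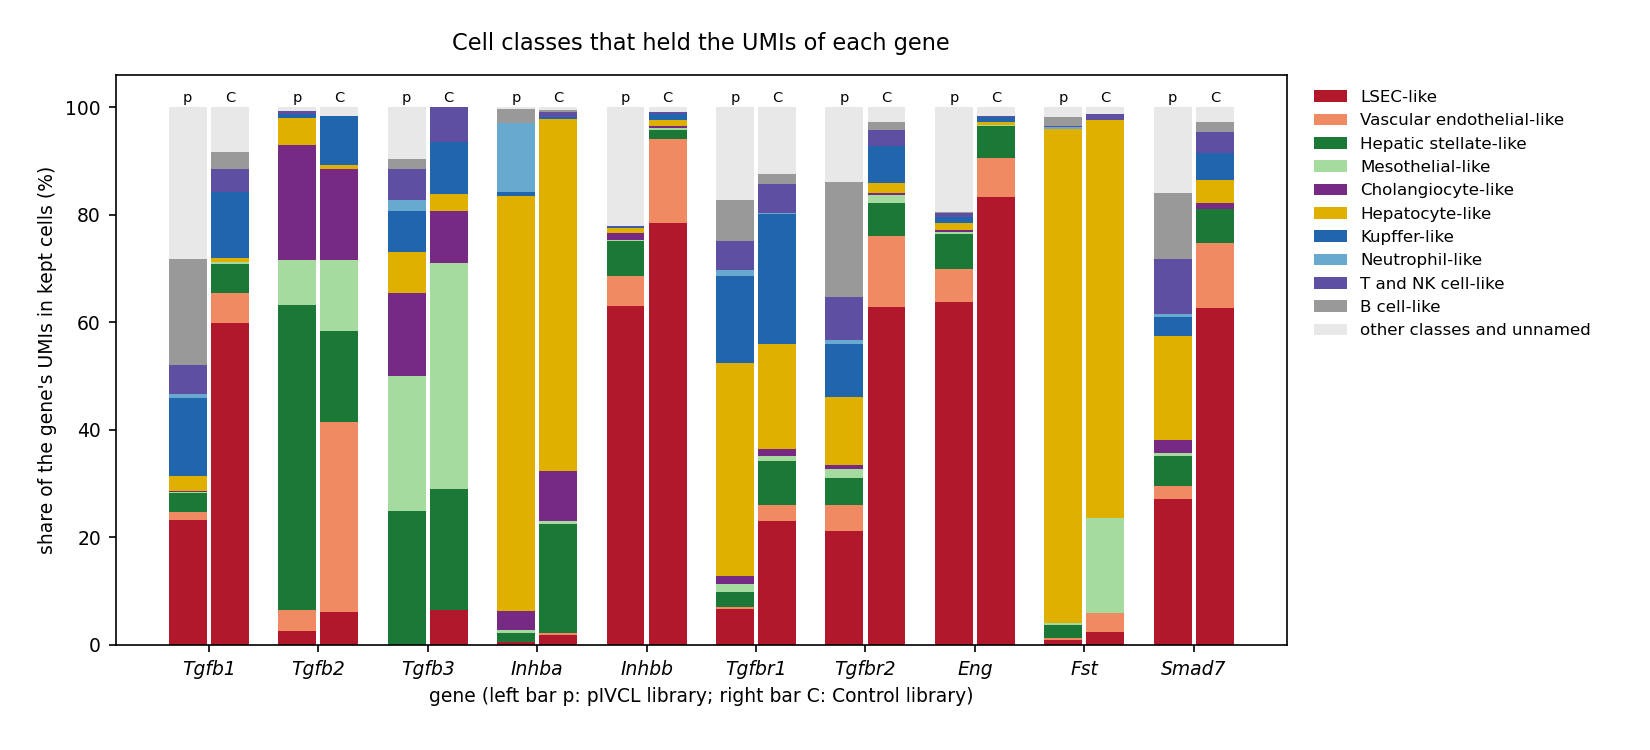
Share of each gene's UMIs, in percent of all its UMIs in kept cells, held by each cell class, with the pIVCL library in the left bar (p) and the Control library in the right bar (C). LSEC-like cells fill 63.0% of the Inhbb bar in pIVCL and 78.4% in Control, and hepatocyte-like cells 92.0% of the Fst bar in pIVCL and 74.1% in Control.

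The receptors followed endothelial, mesothelial and myeloid cells. Tgfbr2 was highest in vascular endothelial-like cells, at 339 CPM (252 to 446) in pIVCL and 305 CPM (271 to 343) in Control, ahead of mesothelial-like cells at 205 CPM in pIVCL and 246 CPM in Control, with overlapping intervals in each library. Tgfbr1 was highest among well-filled classes in Kupffer-like cells, the resident liver macrophages, at 83.4 CPM in pIVCL and 104 CPM (87.6 to 122) in Control. Smaller classes overlapped or exceeded it, with mesothelial-like cells at 102 CPM from 9 UMIs in pIVCL and plasmacytoid DC-like cells at 183 CPM from 37 UMIs in Control. Eng was at 1775 CPM in vascular endothelial-like and 1465 CPM in LSEC-like cells of the pIVCL library, and at 1173 CPM in vascular endothelial-like and 2033 CPM in LSEC-like cells of the Control library. The order of these classes was thus opposite in the libraries. The vascular endothelial-like class joins cluster 15 (20 pIVCL and 83 Control cells) and cluster 35 (26 Control cells, and too few pIVCL cells for a level). In cluster 15 Eng was at 666 CPM in pIVCL and 863 CPM in Control, below LSEC-like cells in both libraries, and in cluster 35 it was at 2202 CPM in Control. Eng in stellate-like cells was 572 CPM in pIVCL and 756 CPM in Control.

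Of the inhibitors, Fst had most of its UMIs in hepatocyte-like cells and Smad7 was broad. Hepatocyte-like cells held 92.0% of Fst UMIs in pIVCL and 74.1% in Control, at the low level of 16.6 CPM in pIVCL and 8.73 CPM in Control. Stellate-like cells of pIVCL were at 16.0 CPM, from 8 UMIs. Mesothelial-like cells held 15 of the 85 Fst UMIs in Control, which is 105 CPM (58.9 to 174) in 44 cells, and 1 UMI in 21 pIVCL cells. Smad7 in vascular endothelial-like cells was at 246 CPM (173 to 339) in pIVCL and 327 CPM (291 to 366) in Control, and in LSEC-like cells at 222 CPM (201 to 244) in pIVCL and 252 CPM (239 to 264) in Control, so these classes overlapped in pIVCL and not in Control. Smad7 was also present in lymphocytes, with 155 CPM in T and NK cell-like cells of pIVCL and 90.0 CPM in those of Control.

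In LSEC-like cells (533 pIVCL and 1031 Control cells), 6 of the 10 genes had the 30 UMIs needed for a ratio, and 1 of them, Inhbb, was at least 2-fold higher in pIVCL, beside 7.27% of 10526 genes in that direction. None was at least 2-fold lower, beside 4.97% of genes. Inhbb had 428 UMIs in pIVCL and 265 UMIs in Control, a ratio of 5.25 (4.49 to 6.14). It was spread over many cells, with at least 1 UMI in 218 pIVCL cells and 176 Control cells and no more than 15 UMIs in any pIVCL cell and 8 in any Control cell. When every cell was thinned to 1000 UMIs, 18.3% of 481 pIVCL cells (14.9 to 22.1) and 3.04% of 921 Control cells (2.03 to 4.36) held Inhbb. Unthinned shares were 40.9% in pIVCL, at a median of 3278 UMIs per cell, and 17.1% in Control, at 6724 UMIs. Thinned B cell-like cells, taken as background, held it in 0 of 937 pIVCL cells, which allows up to 0.320%, and in 0 of 129 Control cells, which allows up to 2.33%. Their median depth was 1839.5 UMIs in pIVCL and 3271 UMIs in Control.

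Inhbb was also compared within clusters that both libraries fill. In cluster 6, which holds most pIVCL LSEC-like cells, Inhbb was at 235 CPM, and in cluster 3, which holds most Control cells, it was at 167 CPM in 20 pIVCL cells and 43.0 CPM in 774 Control cells. The ratio inside cluster 3 was 3.88 (1.91 to 7.06), resting on 11 pIVCL UMIs. In cluster 25 it was at 115 CPM (10 UMIs in 74 cells) in pIVCL and had 0 UMIs in 22 Control cells, which allows up to 124 CPM, so no difference could be detected there. Among only the clusters with at least 20 cells of each library, clusters 3 and 25 pooled, the ratio was 3.21 (1.95 to 5.01). Most pIVCL cells of this pool were of cluster 25 and most Control cells of cluster 3, so it also compares different clusters. Genes of the dissociation stress list summed to 12800 CPM in pIVCL and 5951 CPM in Control, with 12 of 17 at least 2-fold higher. In the third of LSEC-like cells with the lowest stress share, the Inhbb ratio was 4.19 (2.92 to 5.99). Leukocyte genes were also higher in LSEC-like cells, at 1058 CPM in pIVCL and 84.7 CPM in Control. Among the 384 pIVCL and 857 Control LSEC-like cells with no leukocyte UMI, the Inhbb ratio was 5.45 (4.53 to 6.56).

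**Figure D3:**
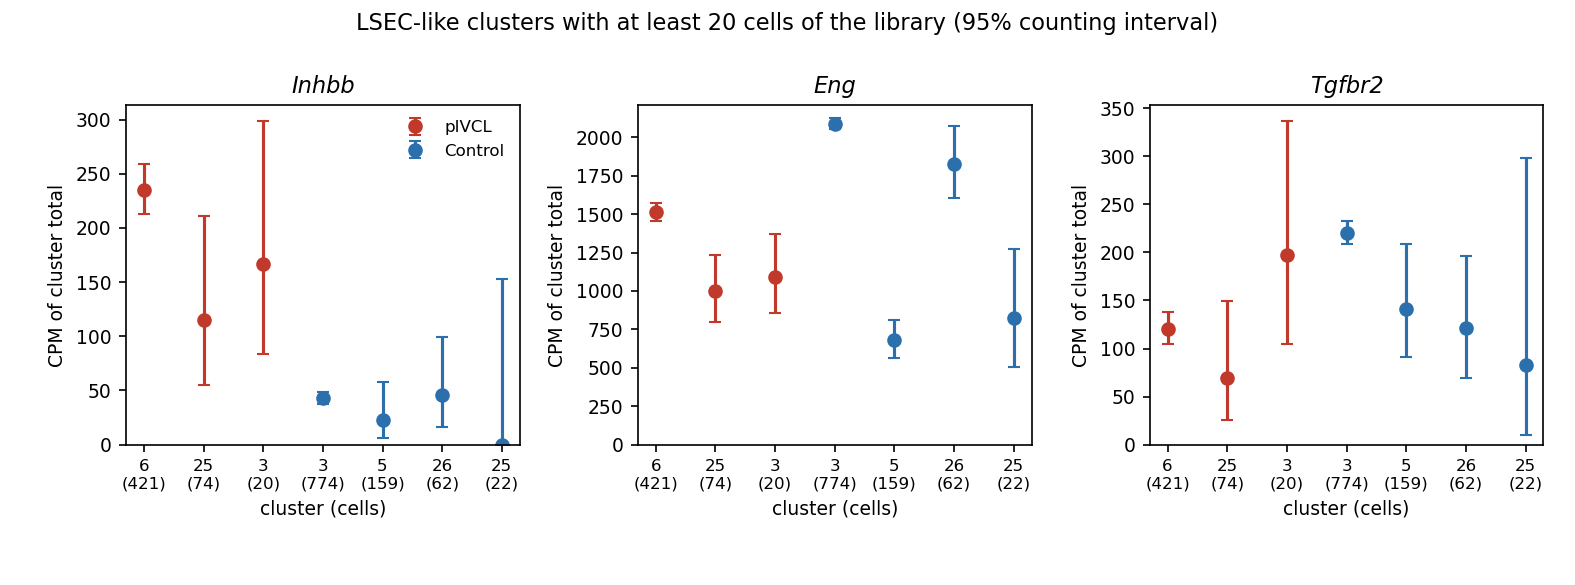
Level of Inhbb, Eng and Tgfbr2 in CPM in the LSEC-like clusters with at least 20 cells of a library, pIVCL clusters left of Control clusters, with the number of cells in brackets and 95% counting intervals. Inhbb is at 115 to 235 CPM in the 3 pIVCL clusters and at 0 to 45.4 CPM in the 4 Control clusters.

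Of the receptors in LSEC-like cells, Tgfbr2 and Eng were lower in pIVCL, within 2-fold, and Tgfbr1 was near parity. LSEC markers also summed lower in this class, at 14080 CPM in pIVCL and 23930 CPM in Control. For every 1000 LSEC marker UMIs there were 104 Eng UMIs in pIVCL and 85.0 in Control. Tgfbr2 had 231 UMIs (121 CPM) in pIVCL and 1338 UMIs (216 CPM) in Control, a ratio of 0.561 (0.486 to 0.645). Inside cluster 3 the Tgfbr2 ratio was 0.894 (0.475 to 1.53), from 13 pIVCL UMIs, and its interval included parity. Among the clusters with at least 20 cells of each library the Tgfbr2 ratio was 0.565 (0.339 to 0.886). Over 14 alternatives it ranged from 0.549 to 0.709. Thinned cells held Tgfbr2 in 10.2% of cells in pIVCL and 18.3% in Control, beside 10.7% of pIVCL and 6.98% of Control B cell-like cells, which carry the receptor themselves. Eng had 2794 UMIs (1465 CPM) in pIVCL and 12594 UMIs (2033 CPM) in Control, a ratio of 0.721 (0.691 to 0.751), and among the clusters with at least 20 cells of each library it was past 2-fold, at 0.498 (0.423 to 0.583). Those clusters are filled oppositely and differed, with an Eng ratio of 0.522 (0.408 to 0.658) in cluster 3 and 1.21 (0.737 to 2.08) in cluster 25. Tgfbr1 had a ratio of 0.974 (0.673 to 1.38), and of 2.42 in the shared clusters. Smad7 had a ratio of 0.881 (0.790 to 0.982). In these cells Tgfb2, Tgfb3, Inhba and Fst had at most 12 UMIs over both libraries, and no ratio is given.

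LSEC-like cells were also divided by whether they held more UMIs of a pericentral or of a periportal endothelial gene list, a split along a continuous count that defines no cell type. In pIVCL 360 cells leaned pericentral and 138 periportal, and in Control 501 leaned pericentral and 481 periportal. The split rested on the abundant list genes Fabp4 and Cd36, since without them 48 pIVCL cells leaned pericentral and 440 periportal, and 373 Control cells leaned pericentral and 589 periportal. With the full lists, Eng was higher on the pericentral side in both libraries, with ratios of pericentral over periportal of 1.35 (1.22 to 1.49) in pIVCL and 1.22 (1.18 to 1.27) in Control. Without Fabp4 and Cd36 the pIVCL ratio of Eng was 1.05 (0.933 to 1.18). Inhbb leaned periportal in Control, at 0.717 (0.555 to 0.923), and had a ratio of 1.22 (0.952 to 1.58) in pIVCL. The difference between those ratios was not tested.

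In hepatic stellate-like cells (84 pIVCL and 185 Control cells), 8 of the 10 genes had a ratio. Tgfb2 and Inhbb were at least 2-fold higher in pIVCL, beside 4.77% of 7612 genes, and Inhba was at least 2-fold lower, beside 6.37% of genes. Tgfb2 had 88 UMIs in pIVCL and 22 UMIs in Control, a ratio of 9.76 (6.06 to 16.4). These came from 27 pIVCL cells, with at most 19 UMIs in a cell, and 13 Control cells, with at most 5. Leaving out the cell with most UMIs in each library gave 10.0 (5.83 to 18.2). Thinned to 1000 UMIs, 11.6% of 69 pIVCL cells and 1.23% of 162 Control cells held Tgfb2, and unthinned 32.1% of pIVCL and 7.03% of Control cells did. In B cell-like cells no thinned cell held it.

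Tgfb2 in pIVCL stellate-like cells rose with markers of smooth muscle and portal fibroblasts, contractile and portal-tract cells that the class can hold. These 8 markers were all detected and summed to 2693 CPM in pIVCL and 877 CPM in Control. The 10 stellate markers, also all detected, summed to 21589 CPM in pIVCL and 41659 CPM in Control. Among the 13 pIVCL and 6 Control cells with over 5000 CPM of smooth muscle and portal fibroblast markers, Tgfb2 had 60 UMIs (722 CPM) in pIVCL and 1 UMI (37.0 CPM) in Control. Among cells with some of these markers up to 5000 CPM, it had 28 UMIs (79.7 CPM) in 50 pIVCL cells and 21 UMIs (35.3 CPM) in 79 Control cells. Cells with none of them held 0 Tgfb2 UMIs in both libraries, in 21 pIVCL cells, which allows up to 45.9 CPM, and in 100 Control cells, which allows up to 5.03 CPM. Most of the pIVCL UMIs thus came from 13 cells, and without the cells over 5000 CPM the ratio was 3.81 (2.09 to 7.07). With classes set cell by cell from marker UMIs, which kept 60 pIVCL and 170 Control cells, it was 2.99 (1.44 to 6.13), and with each cell given equal weight it was 5.13.

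Inhbb in stellate-like cells had 44 UMIs (88.0 CPM) in pIVCL and 6 UMIs (4.92 CPM) in Control, a ratio of 17.9 (7.60 to 51.4). It was found in 15 pIVCL and 2 Control cells. Every one of these UMIs lay in cells that also held an LSEC marker UMI, 54 of the pIVCL and 149 of the Control cells. The 30 pIVCL and 36 Control cells without an LSEC marker held 0 Inhbb UMIs, which allows up to 28.3 CPM in pIVCL and 35.1 CPM in Control. LSEC markers summed to 3399 CPM in pIVCL and 3409 CPM in Control stellate-like cells, with all 11 detected in each. For every 1000 LSEC marker UMIs, stellate-like cells held 25.9 Inhbb UMIs in pIVCL and 1.44 in Control, and LSEC-like cells held 15.9 in pIVCL and 1.79 in Control. Tgfb2 did not follow this pattern. It was at 198 CPM (21 UMIs) in the 30 pIVCL cells and 35.1 CPM (3 UMIs) in the 36 Control cells without an LSEC marker.

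**Figure D4:**
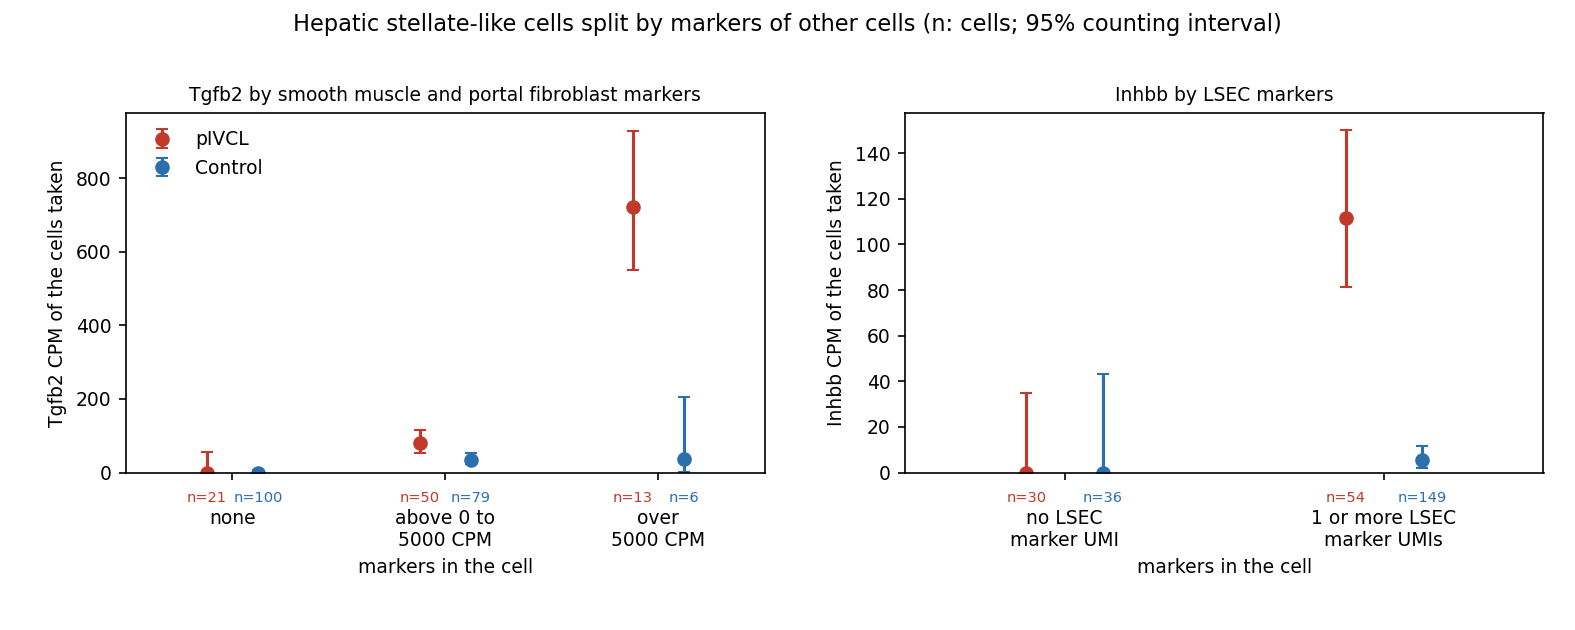
Level of Tgfb2 (left) and Inhbb (right) in CPM in hepatic stellate-like cells split by markers of other cells, pIVCL points left of Control points, with 95% counting intervals and the number of cells. Tgfb2 reaches 722 CPM in the 13 pIVCL cells richest in smooth muscle and portal fibroblast markers, and Inhbb is at 0 in both libraries among cells with no LSEC marker UMI.

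Inhba was the ligand that was lower in pIVCL stellate-like cells, with 7 UMIs (14.0 CPM) in pIVCL and 46 UMIs (37.7 CPM) in Control, a ratio of 0.371 (0.141 to 0.828). It was detected in 5 of 84 pIVCL cells and 40 of 185 Control cells. When each cell had the same weight in place of each UMI, the ratio was 0.847. The receptors and Smad7 differed less. Eng had a ratio of 0.757 (0.660 to 0.865) and Smad7 of 1.41 (1.07 to 1.84), while the intervals of Tgfb1 (1.10), Tgfbr1 (0.830) and Tgfbr2 (1.04) included parity. Tgfb3 had 13 UMIs in pIVCL and 7 in Control, and Fst 8 in pIVCL and 0 in Control, under the limit of 30 UMIs over both libraries. Of the 8 Fst UMIs, 7 lay in cells without an LSEC marker.

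In hepatocyte-like cells (1845 pIVCL and 465 Control cells), 7 genes had a ratio and 1, Eng, was at least 2-fold lower in pIVCL, beside 3.31% of 10743 genes. None was at least 2-fold higher, beside 5.62% of genes, and 8.94% of genes were past 2-fold in either direction. The cells lay mostly in different clusters, with cluster 4 holding 719 pIVCL and 7 Control cells and cluster 11 holding 4 pIVCL and 259 Control cells. Fst had 297 UMIs (16.6 CPM) in pIVCL and 63 UMIs (8.73 CPM) in Control, a ratio of 1.90 (1.45 to 2.54). In cluster 13 it had 29 UMIs in 85 pIVCL cells and 11 UMIs in 51 Control cells, a ratio of 2.58 (1.25 to 5.73). Fst turned direction with the mitochondrial limit, since at 10% in place of 25% the ratio was 0.689. Inhba, at 0.846 (0.693 to 1.04), was near parity, as were Tgfb1 (1.14), Tgfbr1 (0.842), Tgfbr2 (1.37) and Smad7 (1.14), whose intervals included it. Tgfbr1 depended on the cells taken, at 0.187 with the 10% limit and 0.146 in the clusters with at least 20 cells of each library. Tgfb1 and Tgfbr2 also passed 2-fold under some alternatives, and ranged from 0.392 to 2.97 and from 0.451 to 2.23. Smad7 ranged from 0.559 to 1.35. Eng had 60 UMIs (3.36 CPM) in pIVCL and 70 UMIs (9.70 CPM) in Control, a ratio of 0.346 (0.241 to 0.496), in a class whose 11 LSEC markers summed to 36.1 CPM in pIVCL and 148 CPM in Control. Among the 1525 pIVCL and 230 Control cells with no LSEC marker UMI the Eng ratio was 0.563 (0.237 to 1.54), no longer past 2-fold.

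Among leukocytes Eng was past 2-fold in opposite directions, lower in Kupffer-like and higher in T and NK cell-like cells. In Kupffer-like cells (778 pIVCL and 324 Control cells), 1 of 5 genes, Eng, was at least 2-fold lower in pIVCL, beside 4.8% of 8047 genes, and none at least 2-fold higher, beside 6.19%. Eng had 44 UMIs (36.3 CPM) in pIVCL and 162 UMIs (114 CPM) in Control, a ratio of 0.318 (0.222 to 0.446). Of these UMIs, 39 in pIVCL and 155 in Control lay in cells with an LSEC marker UMI, and the 11 LSEC markers summed to 461 CPM in pIVCL and 1013 CPM in Control. For every 1000 LSEC marker UMIs there were 78.9 Eng UMIs in pIVCL and 113 in Control Kupffer-like cells, and 104 in pIVCL and 85.0 in Control LSEC-like cells. The Eng ratio was no longer past 2-fold under 5 of 12 alternatives. It was 0.572 at a mitochondrial limit of 10%, 0.832 without the 6% highest Scrublet scores and 0.984 with classes set per cell, and above parity at 1.17 with at least 1000 UMIs per cell and 1.29 at a clustering resolution of 2. Smad7 had a ratio of 0.537 (0.384 to 0.743) in these cells, and Tgfbr1 (0.804), Tgfbr2 (0.863) and Tgfb1 (0.898) had intervals that included parity.

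In T and NK cell-like cells (420 pIVCL and 217 Control cells), 1 of 5 genes, Eng, was at least 2-fold higher in pIVCL, beside 7.94% of 7011 genes, and none at least 2-fold lower, beside 2.28%. Eng had 35 UMIs in pIVCL, of which 20 lay in a single cell, and 9 UMIs in Control, a ratio of 4.18 (1.97 to 9.89), which was 1.61 at a mitochondrial limit of 10% and 2.69 (0.985 to 8.45) without the cell with most UMIs in each library. LSEC markers were lower in the same cells, at 116 CPM in pIVCL and 154 CPM in Control, and for every 1000 LSEC marker UMIs there were 294 Eng UMIs in pIVCL and 53.3 in Control. Smad7 had 159 UMIs (155 CPM) in pIVCL and 99 UMIs (90.0 CPM) in Control, a ratio of 1.73 (1.33 to 2.24), and Tgfbr2 had a ratio of 1.48 (1.06 to 2.07). In B cell-like cells (1040 pIVCL and 133 Control cells), 0 of 4 genes were 2-fold apart, beside 9.43% of 7435 genes at least 2-fold higher and 1.56% at least 2-fold lower. Tgfbr2 was the furthest from parity there, with 232 UMIs (111 CPM) in pIVCL and 31 UMIs (67.8 CPM) in Control, a ratio of 1.64 (1.12 to 2.46).

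**Figure D5:**
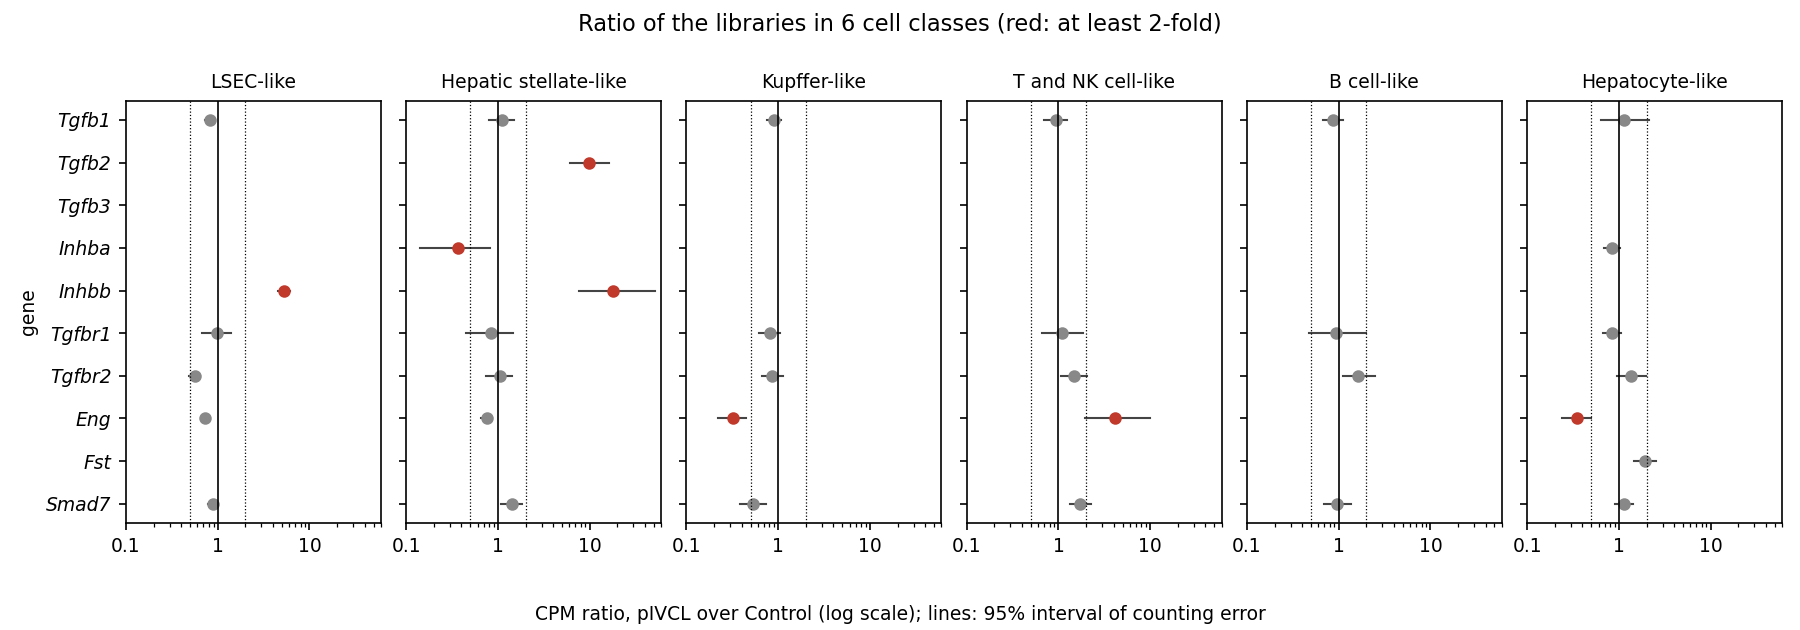
Ratio of CPM, pIVCL over Control, on a log axis for each gene with at least 30 UMIs over both libraries in 6 cell classes, with 95% counting intervals, a solid line at 1 and dotted lines at 0.5 and 2. The ratios past 2-fold (red) are Inhbb in LSEC-like cells, Tgfb2, Inhbb and Inhba in stellate-like cells, and Eng in Kupffer-like, T and NK cell-like and hepatocyte-like cells.

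The other genes of the pathway were described from 7 lists with 57 symbols, all found. Over all genes of a class, the shares at least 2-fold higher and at least 2-fold lower were 7.27% and 4.97% in LSEC-like cells, 4.77% and 6.37% in stellate-like cells and 5.62% and 3.31% in hepatocyte-like cells. Of the latency and activation genes in LSEC-like cells, 2 of 7 measured were at least 2-fold higher in pIVCL, beside 7.27% of all genes, and none at least 2-fold lower, with a median log2 ratio of 0.43, beside -0.02 over all genes of the class. Thbs1, thrombospondin, which frees latent TGF-beta, had 77 UMIs in pIVCL and 1 UMI in Control, a ratio of 250 (43.6 to 10005). Ltbp3, a latent TGF-beta binding protein, had 26 UMIs in pIVCL and 9 in Control, a ratio of 9.38 (4.26 to 22.8), and Nrros, which anchors latent TGF-beta on myeloid cells, had a ratio of 1.49. Dissociation stress and leukocyte genes were also higher in pIVCL LSEC-like cells, and whether these ratios go with them was not tested. In stellate-like cells 2 of 9 measured latency and activation genes were at least 2-fold higher, with a median log2 ratio of 0.14 beside -0.04 over all genes. They were Ltbp2, at 90.0 CPM in pIVCL and 10.7 CPM in Control, and Thbs1, at 96.0 CPM in pIVCL and 14.8 CPM in Control. Ltbp1 had a ratio of 0.591 (0.357 to 0.939).

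BMP ligands are relatives of TGF-beta that signal through Smad1 and Smad5. In LSEC-like cells 1 of 3 measured was at least 2-fold higher and none at least 2-fold lower, with a median log2 ratio of -0.81 beside -0.02 over all genes. Bmp2, the endothelial signal that sets hepcidin in hepatocytes, was at 1025 CPM in pIVCL and 2011 CPM in Control (ratio 0.510), Bmp6, its partner, had a ratio of 0.572, and Bmp4 had 60 UMIs in pIVCL and 18 in Control, a ratio of 10.8 (6.31 to 19.5). In stellate-like cells 3 of 5 were at least 2-fold lower, beside 6.37% of all genes, with a median log2 ratio of -1.11 beside -0.04. Bmp10 had a ratio of 0.300, Gdf2 of 0.437 and Bmp5 of 0.462, where Bmp10 and Gdf2 are the ligands of the endothelial receptor complex that holds Eng. Gdf2 was at 364 CPM in pIVCL and 833 CPM in Control. The stellate markers of this class also summed lower, at 21589 CPM in pIVCL and 41659 CPM in Control. Its smooth muscle and portal fibroblast markers summed to 2693 CPM in pIVCL and 877 CPM in Control. Whether the lower BMP ligands go with this make-up of the class was not tested.

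Of 9 other receptors, 0 of 7 measured in LSEC-like cells were at least 2-fold higher and 1 at least 2-fold lower, with a median log2 ratio of 0.11. That gene was Acvr2b, a type II activin receptor, at 0.464 (0.251 to 0.801), while Acvr1b, the type I activin receptor, had a ratio of 1.85 (1.13 to 2.97) and Acvrl1, the endothelial partner of Eng, of 0.655 (0.478 to 0.882). In stellate-like cells 1 of 5 was at least 2-fold lower, Acvr2a, another type II activin receptor, at 0.431 (0.267 to 0.668), and the median log2 ratio was -0.39. Among SMAD transducers none of 5 in LSEC-like cells passed 2-fold, with a median log2 ratio of 0.38, and 1 of 5 in stellate-like cells was at least 2-fold lower, Smad3, at 0.349 (0.121 to 0.824) from 6 UMIs in pIVCL and 42 in Control. Among the other inhibitors 2 of 9 in LSEC-like cells were at least 2-fold higher, Fstl1, a follistatin relative, at 20.9 (9.35 to 54.9) and Tgif1, a Smad co-repressor, at 2.52 (1.60 to 3.93). In stellate-like cells 1 of 8 was at least 2-fold higher, Fstl1 at 2.03 (1.69 to 2.45), and 1 at least 2-fold lower, Bambi, a decoy type I receptor, at 0.496 (0.361 to 0.670).

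Genes known as TGF-beta or BMP targets were read in the same way. In LSEC-like cells 2 of 7 measured were at least 2-fold higher and none at least 2-fold lower, with a median log2 ratio of 0.75, beside 7.27% of all genes higher and a median of -0.02. Ctgf, a matricellular protein, had 617 UMIs (323 CPM) in pIVCL and 64 UMIs (10.3 CPM) in Control, a ratio of 31.3 (24.2 to 41.2), and Tgfbi, an extracellular matrix protein, had a ratio of 6.94 (4.10 to 12.1). Ctgf was among the leading genes of cluster 6, which held 421 pIVCL and 14 Control cells. Dissociation stress genes in LSEC-like cells summed to 12800 CPM in pIVCL and 5951 CPM in Control, and leukocyte genes to 1058 CPM in pIVCL and 84.7 CPM in Control. Whether the Ctgf and Tgfbi ratios go with these differences was not tested. In stellate-like cells 3 of 7 were at least 2-fold higher, beside 4.77% of all genes, with a median log2 ratio of 0.98 beside -0.04. Among them, Ctgf was at 232 CPM in pIVCL and 42.6 CPM in Control, and Cdkn1a, a cell cycle inhibitor, had a ratio of 2.00 (1.10 to 3.61). In hepatocyte-like cells 2 of 6 were at least 2-fold higher, beside 5.62% of all genes, with a median log2 ratio of 0.93 beside 0.01 over all genes. These were the BMP target genes Id1, at 3.89 (2.85 to 5.44), and Id3, at 2.83 (2.51 to 3.19), while Id2 had a ratio of 1.96 (1.84 to 2.09). The liver activin subunits of hepatocytes went the other way, as Inhbc was at 38.6 CPM in pIVCL and 96.3 CPM in Control and Inhbe at 15.2 CPM in pIVCL and 40.6 CPM in Control, ratios of 0.400 (0.360 to 0.445) and 0.375 (0.317 to 0.444).

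The genes whose pattern was most like that of each gene were sought among 12213 genes, by Pearson correlation of log2(CPM + 10) over 22 points, 11 classes in each of both libraries, which share the library, its depth and its free RNA. The points are described only, without a test. Nearest to Inhbb were Lyve1 (r = 0.925), Fabp4 (0.912) and Emcn (0.912), endothelial genes in liver. Nearest to Eng were Lhfpl2 (0.978), Ptprb (0.969) and Ramp2 (0.968), and nearest to Tgfbr2 was Heg1 (0.914). For Tgfb2 they were Myh10 (0.919), Fmo2 (0.917) and Ehd2 (0.909), and for Tgfb1 Trim30a (0.940), Msn (0.933) and Sp100 (0.928). Inhba, at 0.953, went with Zfhx4, and Fst, at 0.867, with Smad9.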

How the data were processed

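Single-cell suspensions of liver were profiled with the 10x Genomics 3' v2 kit, at a target of 12000 cells per library, per the labels' protocols. Whole-number UMI counts, per gene and barcode, were deposited for each library without normalization. Per the submitters' processing notes, Cell Ranger 3.0.2 and mm10 were used. The sources used here name no annotation release, and printed gene coordinates come from GENCODE M21 for GRCm38. Each file held only barcodes with at least 500 UMIs.

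Barcodes with fewer than 500 UMIs, fewer than 200 genes or over 25% mitochondrial UMIs were removed. The mitochondrial limit took 1554 pIVCL (22.1%) and 830 Control (23.2%) of them. Scrublet, as implemented in scanpy 1.11.5 and with 6% expected, called 3 pIVCL and 5 Control doublets, so the caller has not worked and doublets remain. Both libraries were clustered together without integration (leidenalg 0.10.2, resolution 1, 20 neighbours, 30 components, 2000 variable genes). The 10 genes and all pathway lists were left out of the variable genes, so none of them set a cluster. Clusters were named from markers of 23 classes (175 symbols, all found), with a naming pseudocount of 50 CPM. A cluster had no clear name if its second class reached a share of 0.7 of the first, except for T and NK cells together. The same held if too few markers were detected or another class had more of the leading genes. It also held for shallow clusters with no own marker among the leading genes. Such clusters, if large enough, were divided again at a resolution of 0.5. Those still without a clear name stayed unnamed (157 pIVCL and 84 Control cells). These naming thresholds were set after the clusters were seen.

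UMIs were summed per class and library. Levels needed at least 20 cells of a library, and ratios at least 50 cells in each library and 30 UMIs over both. Intervals are at 95% and cover counting error only: exact Poisson for levels, Clopper-Pearson for shares and conditional binomial for ratios. Where no UMI was found, the limit given is 3 UMIs. For shares of cells, each cell was thinned to 1000 UMIs and shallower cells were left out. There was no test between the libraries. Genes named beside the 10 are the 3 with the largest absolute log2 ratio of a list described, or the 3 with the closest pattern, and the Fabp4 and Cd36 pair was named as an alternative to the zonation lists. A target gene that this rule names is not reported here. On counts simulated for the LSEC-like comparison (10682 genes), 100% of genes made 4-fold higher and 95.9% of those made 0.25 times as high passed 2-fold, as did 1.21% of unchanged genes. For the stellate-like comparison (7617 genes) these shares were 100%, 95.5% and 2.06%. Of genes made 1.5-fold higher, 2% passed in the LSEC-like and 16% in the stellate-like comparison. Of those made 0.667 times as high, 6% and 20% passed. The simulated counts held Poisson counting error only, with no difference between cells, clusters or libraries. The shares of unchanged genes are therefore not rates of false calls in the real data. Calculations used Python 3.11.15, numpy 2.4.6, scipy 1.17.1, pandas 2.3.3 and scikit-learn 1.9.0, and figures matplotlib 3.10.9.

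The genes, lists and tests were chosen with earlier results of these data known. Of the alternatives, the removal of cells with LSEC marker, leukocyte or smooth muscle marker UMIs and of the cell with most UMIs of a gene were chosen after seeing the data.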

Additional observations from a re-analysis of the deposited data

Results flagged for a closer look

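Eng, the endothelial co-receptor, moved in opposite directions across classes that carry little of it. Its ratio of pIVCL over Control was 0.318 in Kupffer-like and 0.346 in hepatocyte-like cells and 4.18 in T and NK cell-like cells. The Kupffer-like ratio was 0.984 with classes set per cell and above parity under 2 alternatives, at 1.17 and 1.29, and the hepatocyte-like ratio was 0.563 (0.237 to 1.54) in cells with no LSEC marker UMI. The difference between these ratios was not tested, and the ratio in T and NK cell-like cells included 20 UMIs of a single pIVCL cell.

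Among barcodes removed by the filters, most of them for their mitochondrial share, Fst was present in both libraries. It had 230 UMIs (21.8 CPM) in 1599 pIVCL barcodes and 47 UMIs (9.73 CPM) in 853 Control barcodes, a ratio of 2.24 (1.63 to 3.13).

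Cells of unnamed clusters, which entered no comparison, held Inhbb at 118 UMIs (210 CPM) in 157 pIVCL cells and 3 UMIs (15.8 CPM) in 84 Control cells, a ratio of 13.3 (4.44 to 65.4). Smad7 had 100 UMIs in the same pIVCL cells and 15 UMIs in the Control cells, a ratio of 2.25 (1.30 to 4.18). The unnamed clusters were unequally filled. Cluster 14, which scored for LSEC and T cells and had Inhbb among its leading genes, held 38 pIVCL and 0 Control cells. Cluster 24, best scored as hepatocyte, held 45 pIVCL and 69 Control cells. LSEC markers summed to 6489 CPM in pIVCL and 3246 CPM in Control unnamed cells, so both ratios compare unlike mixtures of cells.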

How the results depend on the processing

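Of 35 ratios of the 10 genes, all kept their side of 2-fold when the class total left out mitochondrial and hepatocyte free RNA genes, when the scaling used the median ratio over genes, when doublets were not removed and at a clustering resolution of 0.5. Inhbb in LSEC-like cells ranged from 3.21 to 5.73 over 14 alternatives and Tgfb2 in stellate-like cells from 2.99 to 11.1 over 13. Inhbb in stellate-like cells ranged from 11.8 to 90.7 over 12, the last without the Control cell that held 5 of its 6 UMIs. Without the highest Scrublet scores, too few Inhbb UMIs were left in stellate-like cells for a ratio. Stellate-like cells with no LSEC marker UMI held no Inhbb UMI and gave no ratio either. The range of Inhbb in stellate-like cells therefore does not cover these alternatives, and its dependence on doublets was not tested. Eng in Kupffer-like cells was reversed, at 1.17 with at least 1000 UMIs per cell and 1.29 at resolution 2, and the cause was not tested.

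Counts of genes past 2-fold moved as follows. In LSEC-like cells 1 gene became 3 with only shared clusters. In stellate-like cells 3 became 1 with at least 100 UMIs per gene, where Inhbb and Inhba had too few UMIs to enter. The 3 became 0 in stellate-like cells with no LSEC marker UMI, where Tgfb2 had 24 UMIs and fewer genes could be measured. In Kupffer-like cells 1 became 0 at a mitochondrial limit of 10%, at 1000 UMIs per cell, without the 6% highest Scrublet scores, with classes set per cell and without LSEC marker UMIs, and 2 with at least 10 UMIs per gene. In T and NK cell-like cells 1 became 0 at a limit of 10%, and 2 with no doublet removal and with classes set per cell. The count was also 0 in shared clusters, without LSEC marker UMIs and with at least 100 UMIs. In those settings Eng had too few UMIs for a ratio. In B cell-like cells 0 became 1 with classes set per cell and without LSEC marker UMIs, and 2 with at least 10 UMIs. In hepatocyte-like cells 1 became 3 at a limit of 10% and with the mean over cells, and 2 with at least 1000 UMIs and without the highest Scrublet scores. The cause of the other moves was not tested.

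No paired analysis was possible because each group held 1 library, and leaving out a replicate was not run. Low counts limit the sparse genes, chiefly Tgfb3 and, outside hepatocyte-like cells, Fst.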
